A study of Homo sapiens with 12 samples.

Results

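Pyruvate entry and lactate export genes were followed in RCC4 cells, an established line of clear cell renal cell carcinoma (ccRCC) that lacks functional VHL, the protein that marks the alpha subunits of the hypoxia-inducible factors (HIFs) for degradation. The genes were 9 of the 23106 symbols with counts, taken by symbol: the pyruvate dehydrogenase kinases PDK1, PDK2, PDK3 and PDK4, the E1 subunits of pyruvate dehydrogenase PDHA1 and PDHB, the pyruvate dehydrogenase phosphatase PDP1, and the monocarboxylate transporters SLC16A1 (MCT1) and SLC16A3 (MCT4). Bulk polyA RNA-seq was available for 4 groups with 3 numbered replicates each, 12 libraries in all. Cells of every group were cultured at atmospheric oxygen in high glucose medium, reverse transfected with pools of siRNAs at a total of 2 nM, and harvested after 48 h. Control siRNA cells received 2 nM of the control pool, HIF1A siRNA cells 1 nM each of the HIF1A and control pools, HIF2A siRNA cells 1 nM each of the pool against EPAS1, which encodes HIF-2 alpha, and the control pool, and double knockdown cells 1 nM each of the HIF1A and EPAS1 pools.

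Pyruvate made by glycolysis has alternative fates. It enters mitochondria and is oxidised to acetyl-CoA by the pyruvate dehydrogenase complex, or it is reduced to lactate in the cytosol and leaves the cell through proton-coupled monocarboxylate transporters. The PDK kinases phosphorylate the E1 alpha subunit and switch the complex off, and the PDP phosphatases remove that phosphate and switch it on again. In ccRCC, where VHL is usually lost, HIFs stay active at normal oxygen and the glycolytic program is a known feature of the tumor cells.

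Library totals lay between 13263168 and 20451433 counts, and replicates of a group differed by more than sampling noise, so none was merged. The targeted genes followed the labels. HIF1A had a level of 96.7 ± 33.6 CPM (counts relative to library size; mean ± SD, n = 3 here and below) with control siRNA, 18.3 ± 3.62 with HIF1A siRNA, 121 ± 13.3 with HIF2A siRNA and 28.7 ± 4.09 in the double knockdown. EPAS1 had 157 ± 16.9, 114 ± 17.7, 10.1 ± 1.54 and 8.94 ± 2.16 CPM in the same order, and its lower level with HIF1A siRNA did not pass the test (adjusted p = 0.250, from the quasi-likelihood test of edgeR with p-values adjusted by Benjamini-Hochberg over all genes tested, as for every adjusted p given). Of 7 renal epithelial markers, PAX8 was present at 197 to 315 CPM, PAX2 at 25.0 to 93.1, EPCAM at 32 to 71 and KRT8 at 366.5 to 569.6. KRT18 ranged over 75.5 to 216.5 CPM, VIM over 2927 to 5433 and CA9 over 6.77 to 404.8. Their summed level was 5163 to 6785 CPM with control siRNA and 3991 to 5339 in the double knockdown, which overlapped. PTPRC, CD3E and PECAM1, markers of leukocytes and endothelium, were at 0 counts in every library. CD68, the third leukocyte marker examined, ranged over 32.6 to 65.1 CPM, and its groups overlapped. The other endothelial markers, CDH5 and VWF, reached at most 6 and 8 counts. Of 4 fibroblast or pericyte markers, DCN had at most 1 count, PDGFRB 9 to 162 and RGS5 24 to 214 counts, and COL1A1 16.6 to 71.1 CPM, so that their summed level overlapped between groups (30.0 to 46.6 CPM with control siRNA, 21.4 to 49.8 with HIF1A siRNA, 33.7 to 84.5 with HIF2A siRNA and 22.6 to 65.9 in the double knockdown). In bulk RNA, fewer expressing cells and less RNA per cell cannot be told apart.

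Upstream sequence is shown first because HIFs bind a short core motif, most often ACGTG, which was searched on both strands. RefSeq promoter windows (GRCh38.p14, 250 bases before to 50 after a start) were found for 7 of the 9 genes, 14 windows in all, and not for SLC16A1 or PDP1. Of these windows, 5 held ACGTG on either strand, 1 each for PDK1, PDK2, PDK3, PDHB and SLC16A3, against 21.4% of all 35116 windows of the same length. A second core, GCGTG, was present in 36.5% of windows on either strand and is not marked. The 150 bases before the start are printed 5′ to 3′ for 3 genes whose RNA fell after HIF1A siRNA and for PDHB, whose change did not pass the test, with the core in capitals, written CACGT where it lies on the opposite strand.
PDK1, chr2:172555940-172556089, plus strand: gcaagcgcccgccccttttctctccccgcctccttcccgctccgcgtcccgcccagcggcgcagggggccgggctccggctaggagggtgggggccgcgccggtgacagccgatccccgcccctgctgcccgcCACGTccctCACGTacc
PDK3, chrX:24465136-24465285, plus strand: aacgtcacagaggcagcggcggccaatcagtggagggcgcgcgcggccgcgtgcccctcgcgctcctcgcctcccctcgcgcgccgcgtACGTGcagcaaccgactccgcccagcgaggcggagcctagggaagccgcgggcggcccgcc
SLC16A3, chr17:82228892-82229041, plus strand: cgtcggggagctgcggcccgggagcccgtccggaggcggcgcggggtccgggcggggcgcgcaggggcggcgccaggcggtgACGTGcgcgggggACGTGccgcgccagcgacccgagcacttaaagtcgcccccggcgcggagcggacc
PDHB, chr3:58433833-58433982, minus strand: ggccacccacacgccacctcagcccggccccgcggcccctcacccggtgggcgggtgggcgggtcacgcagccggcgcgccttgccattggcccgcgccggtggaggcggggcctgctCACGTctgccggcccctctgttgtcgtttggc
PDK1, PDK2 and SLC16A3 had more than 1 window, and only 1 window of each held ACGTG. For PDK1 and SLC16A3 the sequence printed is from that window, picked because it held the most cores. This PDK1 window held 2 cores that began at -17 and -8 from its start, and this SLC16A3 window held 2 at -68 and -55. PDK3 had 1 at -61. PDHB had 1 at -32 and another at -236, outside the stretch shown, that lies within the palindrome CACGTG, the E-box bound by MYC and other basic helix-loop-helix proteins. The only core of PDK2, at -129, also lay within CACGTG. Windows with 2 cores made up 3 of the 14, and 3.4% of all windows held at least 2. A match is a description of the letters only: PDHB had as many cores as PDK1 and SLC16A3, and no binding was measured.

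HIF1A siRNA lowered a pair of kinases and a lactate exporter. With HIF1A siRNA, 3 of the 9 genes were lower than with control siRNA (PDK1, PDK3 and SLC16A3) and none was higher, against 1.35% of 13000 tested genes lower and 0.0538% higher. The same 3 were called in the double knockdown, where 6.46% of tested genes were lower and 3.91% higher. With DESeq2, or with only the 6 compared libraries, or without HIF2A siRNA replicate 2, the count for the double knockdown was 5, PDK2 and PDHA1 being added. The share of all genes called in those fits is not given here, so this rise is not read as a result about the 9. With HIF2A siRNA none of the 9 was called, where 0.192% of tested genes were lower and 0.00769% higher (864 genes had an unadjusted p under 0.05, none of them among the 9, and DESeq2 also called 0 of the 9). The median log2 fold change of the 9 was -0.16, 0.03 and -0.17 for HIF1A siRNA, HIF2A siRNA and the double knockdown, beside 0.0032, 0.00052 and 0.0048 over all genes tested. These comparisons share the control libraries. PDK1, PDK3 and SLC16A3 also belong to the list of HIF-1 targets that the study chose on these libraries, so the direction of their change is not independent evidence of that list.

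**Figure D1:**
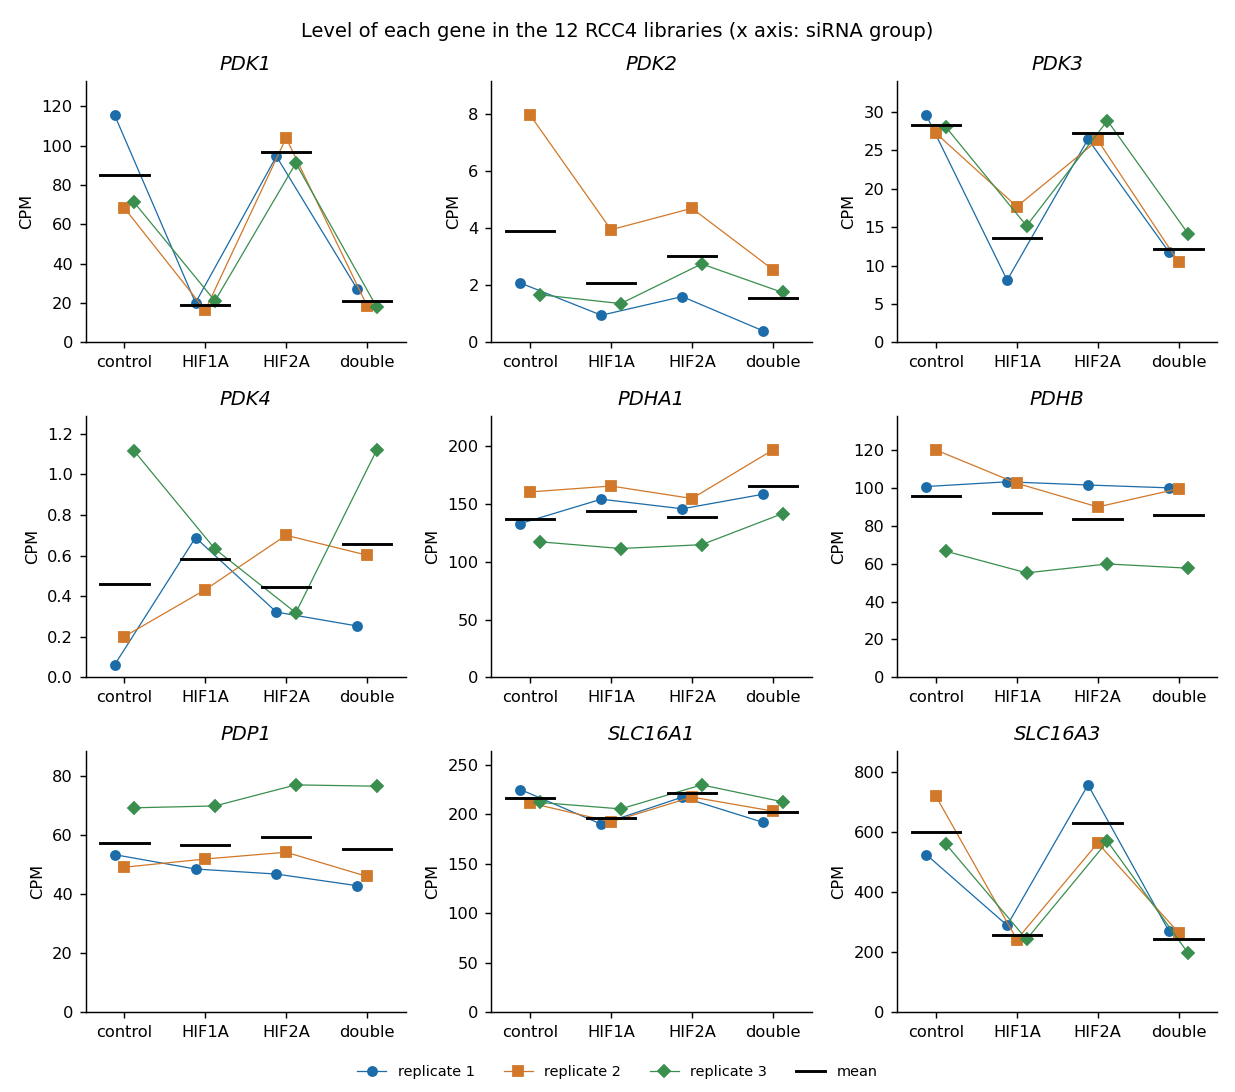
Level in CPM (y axis, from 0) of each of the 9 genes in the 4 siRNA groups (x axis), with 1 point per library, lines joining libraries of the same replicate number and black bars at the group means. PDK1, PDK3 and SLC16A3 were low in both groups that received HIF1A siRNA, and replicate 3 was the lowest library of each group for PDHA1 and PDHB and the highest for PDP1.

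PDK1, the kinase best known as a HIF-1 target, fell most of the 9 by its fitted value. Its counts in replicates 1, 2 and 3 were 1884, 1361 and 1149 with control siRNA (116, 68.3 and 71.2 CPM) and 380, 227 and 433 with HIF1A siRNA (20.1, 16.3 and 21.1 CPM). With HIF2A siRNA they were 1766, 1634 and 1719 (94.6, 104 and 91.1 CPM), and in the double knockdown 535, 249 and 369 (27.0, 18.7 and 18.0 CPM). All 6 libraries with HIF1A siRNA lay below all 6 without it. The log2 fold change against control siRNA was -2.11 (SE 0.17, adjusted p = 1.6e-06 by edgeR), with each HIF1A siRNA library at 17.8 to 30.1% of its control pair. In the double knockdown it was -1.99 (SE 0.17, adjusted p = 1.1e-06), at 23.8 to 28.0% of control. HIF2A siRNA left PDK1 at 0.23 (95% interval -0.11 to 0.56, adjusted p = 0.836), lower than control in 1 of 3 pairs, and the groups overlapped.

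PDK3, a highly active kinase isoform, had fewer counts and a smaller fall. Control siRNA gave 483, 543 and 453 counts (29.6, 27.2 and 28.1 CPM) and HIF1A siRNA 153, 246 and 312 (8.10, 17.7 and 15.2 CPM). HIF2A siRNA gave 494, 414 and 545 counts (26.5, 26.3 and 28.9 CPM) and the double knockdown 233, 139 and 290 (11.8, 10.5 and 14.1 CPM). The 2 groups with HIF1A siRNA again lay wholly below the other groups, and the HIF1A siRNA libraries were more spread (SD 4.97 CPM) than the control libraries (SD 1.19 CPM), with replicate 1 the lowest. PDK3 changed by -1.09 on the log2 scale with HIF1A siRNA (SE 0.21, adjusted p = 0.0097) and -1.23 in the double knockdown (SE 0.21, adjusted p = 0.0012). HIF2A siRNA left it at -0.06 (95% interval -0.49 to 0.36, adjusted p = 0.978). The call for HIF1A siRNA was lost without the replicate block (-1.05, adjusted p = 0.183), without replicate 1 (-0.75, adjusted p = 0.180) or replicate 3 (-1.18, adjusted p = 0.162), and without control siRNA replicate 1 (-0.94, adjusted p = 0.0514), HIF1A siRNA replicate 1 (-0.79, adjusted p = 0.0672) or HIF1A siRNA replicate 3 (-1.13, adjusted p = 0.0608). The call for the double knockdown held in all 22 alternatives.

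The other kinases were scarce. PDK2, expressed in most tissues, had 34, 159 and 27 counts with control siRNA and 18, 55 and 28 with HIF1A siRNA. HIF2A siRNA gave 30, 74 and 52 counts, and the double knockdown gave 8, 34 and 36. Replicate 2 was highest in 3 of 4 groups by count and in all 4 by CPM, and the groups overlapped. Its log2 fold change was -0.88 with HIF1A siRNA (95% interval -1.74 to -0.02, adjusted p = 0.562), -0.22 with HIF2A siRNA (95% interval -1.06 to 0.62, adjusted p = 0.953) and -1.25 in the double knockdown (95% interval -2.13 to -0.36, adjusted p = 0.0687), none of which passed the threshold. The last of these passed with DESeq2 (adjusted p = 0.0303), with only the 6 compared libraries (0.0426), and without control siRNA replicate 3 (-1.65, 0.0348), HIF2A siRNA replicate 2 (-1.23, 0.0484) or double knockdown replicate 3 (-1.71, 0.0390). PDK4, the kinase induced by fasting and fatty acids in other tissues, had 1 to 23 counts per library (0.0613 to 1.12 CPM). It was tested and not called, and it is part of the counts and medians of the 9. Its own fold changes are left out here for the low counts. Within the control siRNA group alone it ranged over 1, 4 and 18 counts.

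Neither E1 subunit, the target of the kinases, was called in any comparison with control siRNA. PDHA1 encodes E1 alpha, which carries the phosphorylated serines, and PDHB encodes E1 beta, its partner in the catalytic tetramer. For PDHA1, control siRNA gave 133, 161 and 117 CPM, HIF1A siRNA 154, 166 and 112, HIF2A siRNA 146, 155 and 115, and the double knockdown 159, 197 and 142. Replicate 2 was highest and replicate 3 lowest in all 4 groups, and all groups overlapped. PDHA1 had a log2 fold change of 0.06 after HIF1A siRNA (95% interval -0.15 to 0.27, adjusted p = 0.924) and 0.02 after HIF2A siRNA (95% interval -0.19 to 0.23, adjusted p = 0.992). In the double knockdown each library stood at 119 to 123% of its control pair, with a log2 fold change of 0.27 (95% interval 0.06 to 0.48) that missed the threshold (adjusted p = 0.0908). It passed with DESeq2 (adjusted p = 0.0465), with only the 6 compared libraries (0.0282) and without HIF2A siRNA replicate 2 (0.0366).

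PDHB gave 101, 120 and 66.6 CPM with control siRNA and 103, 103 and 55.2 with HIF1A siRNA. With HIF2A siRNA it gave 102, 90.0 and 59.9, and in the double knockdown 100.1, 99.7 and 57.6. Replicate 3 was the lowest library in each group. The log2 fold changes were -0.16 (95% interval -0.39 to 0.07), -0.19 (95% interval -0.42 to 0.04) and -0.17 (95% interval -0.40 to 0.06) for HIF1A siRNA, HIF2A siRNA and the double knockdown (adjusted p = 0.777, 0.790 and 0.366). A fall as large as that of PDK3 with HIF1A siRNA (-1.09) lies outside each of these intervals.

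PDP1, the calcium-stimulated phosphatase that reactivates the complex, gave 53.3, 49.1 and 69.2 CPM with control siRNA and 48.5, 51.9 and 69.8 with HIF1A siRNA. With HIF2A siRNA it gave 46.8, 54.1 and 76.9, and in the double knockdown 42.8, 46.0 and 76.5. Here replicate 3 was the highest library in each group. The log2 fold changes were -0.02 (95% interval -0.26 to 0.23), 0.03 (95% interval -0.21 to 0.28) and -0.09 (95% interval -0.33 to 0.16), with adjusted p = 0.988, 0.981 and 0.689, and the groups overlapped.

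SLC16A3 and SLC16A1 carry lactate across the plasma membrane, SLC16A3 being the form typical of glycolytic cells that export it. SLC16A3 had 8560, 14327 and 9042 counts with control siRNA (525, 719 and 561 CPM) and 5452, 3362 and 4985 with HIF1A siRNA (289, 242 and 243 CPM). HIF2A siRNA gave 14130, 8854 and 10730 (757, 563 and 569 CPM) and the double knockdown 5346, 3519 and 4018 (270.2, 265 and 196 CPM). The 6 libraries with HIF1A siRNA all lay below the 6 without it. The log2 fold change was -1.23 with HIF1A siRNA (SE 0.14, adjusted p = 8.1e-05) and -1.32 in the double knockdown (SE 0.14, adjusted p = 1.4e-05), at 33.7 to 55.1% and 35.0 to 51.6% of the control pair. HIF2A siRNA left it at 0.06 (95% interval -0.24 to 0.35, adjusted p = 0.966), higher than control in 2 of 3 pairs.

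SLC16A1, the more widely expressed transporter, gave 225, 212 and 212 CPM with control siRNA and 190.1, 193 and 206 with HIF1A siRNA. HIF2A siRNA gave 218, 218 and 230 CPM, and the double knockdown 192, 203 and 213. Its HIF1A siRNA libraries lay just below its control libraries, at 84.5 to 96.9% of the pair, with a log2 fold change of -0.14 (95% interval -0.34 to 0.05) that did not pass the test (adjusted p = 0.753). In the double knockdown it was -0.09 (95% interval -0.29 to 0.10, adjusted p = 0.568) and with HIF2A siRNA 0.03 (95% interval -0.16 to 0.23, adjusted p = 0.971). The 95% intervals of the 2 transporters did not overlap for HIF1A siRNA or for the double knockdown.

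**Figure D2:**
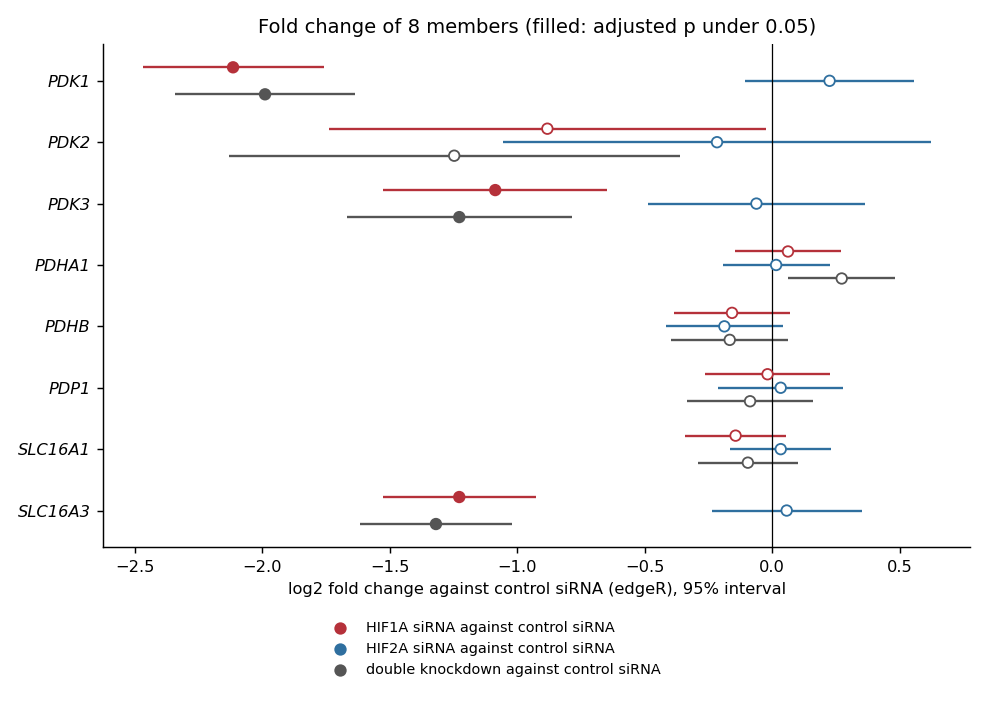
Log2 fold change against control siRNA (x axis) of 8 of the genes (y axis; PDK4 is left out for its low counts) from edgeR, with 95% intervals as bars and filled points for an adjusted p under 0.05. PDK1, PDK3 and SLC16A3 lie at -1.09 or below for HIF1A siRNA and the double knockdown, and the HIF2A siRNA points lie between -0.22 and 0.23.

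Comparing the HIF siRNAs directly separated the same genes. HIF1A siRNA against HIF2A siRNA gave 3 lower genes of the 9, with 1.52% of tested genes lower. PDK1 differed by -2.34 (SE 0.17, adjusted p = 4.0e-07), SLC16A3 by -1.28 (SE 0.14, adjusted p = 4.7e-05) and PDK3 by -1.02 (SE 0.21, adjusted p = 0.013). Each was lower in 3 of 3 pairs. The PDK3 call was lost without the replicate block (adjusted p = 0.215), without replicate 1 (-0.76, adjusted p = 0.116) or replicate 3 (-1.07, adjusted p = 0.200), and without HIF1A siRNA replicate 1 (-0.73, adjusted p = 0.0802), HIF1A siRNA replicate 3 (-1.07, adjusted p = 0.0672) or HIF2A siRNA replicate 3 (-1.04, adjusted p = 0.0536).

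The double knockdown against HIF1A siRNA shows what changed when the EPAS1 siRNAs replaced the control pool beside HIF1A siRNA. HIF1A itself was not equally low: the double knockdown libraries stood at 133 to 178% of their HIF1A siRNA pair. Its log2 fold change there was 0.66 (95% interval 0.20 to 1.11) and was not called (adjusted p = 0.184). Loss of EPAS1 and a weaker fall of HIF1A cannot be told apart in this comparison or in the interaction. Against HIF1A siRNA none of the 9 genes was called by edgeR, with 1.46% of tested genes called (1581 tested genes had an unadjusted p under 0.05, PDHA1 alone of the 9, and DESeq2 called 0 of the 9). PDK1 differed by 0.13 (95% interval -0.23 to 0.48), PDK3 by -0.14 (95% interval -0.59 to 0.31) and SLC16A3 by -0.09 (95% interval -0.39 to 0.20). Against HIF2A siRNA, 3 of the 9 were lower, with 3.33% of tested genes lower: PDK1 by -2.21, SLC16A3 by -1.38 and PDK3 by -1.17 (SE 0.17, 0.14 and 0.21, adjusted p = 5.1e-07, 1.6e-05 and 0.0032). That call of PDK3 was lost without the replicate block (adjusted p = 0.0653) and without replicate 3 (-1.24, adjusted p = 0.0665). The interaction, the double knockdown effect minus the sum of the single effects on the log2 scale, was called for none of the 9 and for 0% of tested genes (311 had an unadjusted p under 0.05, none of the 9 among them, and DESeq2 also called 0 of the 9). It was -0.10 for PDK1 (95% interval -0.59 to 0.39), -0.08 for PDK3 (95% interval -0.70 to 0.54) and -0.15 for SLC16A3 (95% interval -0.57 to 0.27). With 3 replicates, departures from additivity within these intervals are not excluded, and the smallest departure that could be detected was not computed.

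Ratios within a library show how the genes moved against each other. The ratio of PDK1 to PDP1, kinase to opposing phosphatase, fell to 19.2, 22.6 and 29.3% of the control pair with HIF1A siRNA and to 29.2, 29.3 and 22.8% in the double knockdown. HIF2A siRNA left it at 93.4, 138 and 115%. For PDK3 to PDP1 the values were 30.1, 61.5 and 53.6% with HIF1A siRNA, 49.6, 41.0 and 45.5% in the double knockdown, and 102, 87.6 and 92.5% with HIF2A siRNA. Both kinase ratios thus lay below control in every library with HIF1A siRNA. PDP1 was not called in either group with HIF1A siRNA, so these ratios largely restate the falls of PDK1 and PDK3. They are ratios of RNA, and protein, phosphorylation and enzyme activity were not measured in these libraries.

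Per kilobase of transcript (MANE Select models of GENCODE v44, scale CPM per kb), the control siRNA level of SLC16A3 was 231 ± 39.8. It was followed by PDHB at 63.6 ± 18.0, SLC16A1 at 57.6 ± 2.05, PDHA1 at 40.9 ± 6.52, PDP1 at 13.6 ± 2.52, PDK2 at 1.16 ± 1.05 and PDK4 at 0.128 ± 0.159. PDHB and SLC16A1, and PDK2 and PDK4, differed by less than the larger SD of each pair, though by more than the smaller. PDK1 and PDK3 were not placed, because their coding transcript models span 558 to 14072 and 1741 to 12720 bases and reach far beyond the longest model of the other genes (4830 bases, for SLC16A3). The order rests on 1 model per gene and could change with another, since the coding models of SLC16A3 span 279 to 4830 bases and those of PDP1 341 to 4358. On this scale the ratio of SLC16A3 to SLC16A1 was 3.36, 4.91 and 3.82 with control siRNA and 5.02, 3.74 and 3.57 with HIF2A siRNA. With HIF1A siRNA it was 2.19, 1.81 and 1.70, and in the double knockdown 2.03, 1.88 and 1.33. With these models the ratio was above 1 in all 12 libraries, but its size and direction depend on the models: in CPM, without length, double knockdown replicate 3 had 196 for SLC16A3 and 213 for SLC16A1.

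**Figure D3:**
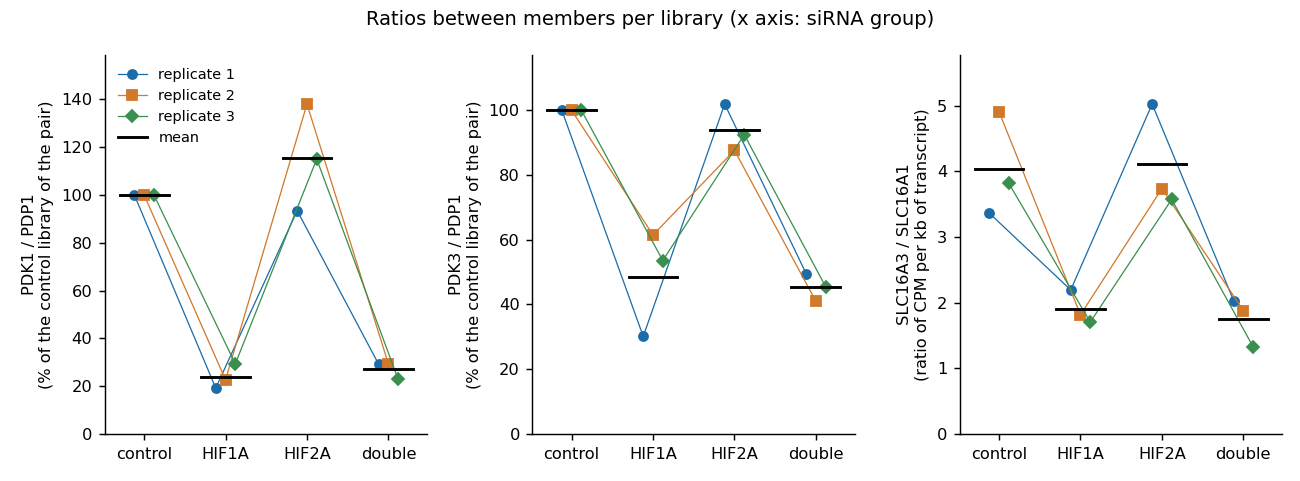
Ratios of PDK1 to PDP1 and of PDK3 to PDP1, as % of the control library of the same replicate number, and of SLC16A3 to SLC16A1 in CPM per kb (y axes, from 0) by siRNA group (x axis), with 1 point per library and black bars at the means. With HIF1A siRNA the PDK1 to PDP1 ratio averages 23.7% and the transporter ratio 1.90, against 4.03 with control siRNA.

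Where each gene's variation lay differed sharply among the 9. Splitting the variance of log2(CPM + 0.5) over the 12 libraries, siRNA group took 95.5% for PDK1, 92.4% for SLC16A3 and 83.3% for PDK3. It took 68.6% for SLC16A1, whose level ranged only over 190.1 to 230 CPM. Replicate number took 92.4% for PDHB, 89.7% for PDP1, 72.2% for PDHA1 and 65.6% for PDK2. The medians over all genes tested were 19.2% for siRNA group and 46.4% for replicate number. PDHB and PDP1 ran in opposite directions between replicates, with replicate 3 lowest for PDHB and highest for PDP1 in all 4 groups.

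**Figure D4:**
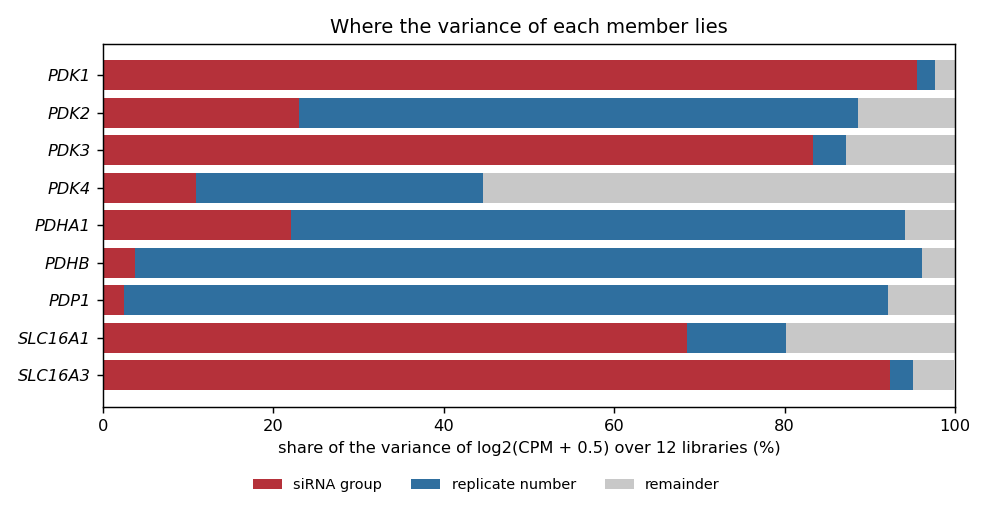
Share of the variance of log2(CPM + 0.5) over 12 libraries (x axis, %) that lies between siRNA groups, between replicate numbers and in the remainder, for each of the 9 genes (y axis). The siRNA share reaches 95.5% for PDK1 and is 2.43% for PDP1.

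Other genes of pyruvate use, a list of 20 with 16 tested, were read from the same fit. HIF1A siRNA lowered 2 of the 16, LDHA and GPT2, and raised none, against 1.35% of all tested genes lower and 0.0538% higher. With HIF2A siRNA none was called, against 0.192% lower and 0.00769% higher. The double knockdown lowered 3 (LDHA, GPT2 and PKM) and raised SLC16A7, against 6.46% lower and 3.91% higher. The list's median log2 fold change was -0.05, 0.02 and -0.05 in these comparisons.

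LDHA, the lactate dehydrogenase subunit that favours lactate formation, gave 4318, 4362 and 3390 CPM with control siRNA and 1995, 2456 and 1524 with HIF1A siRNA. HIF2A siRNA gave 3979, 4129 and 3740 CPM, and the double knockdown 1717, 1631 and 1235. Its log2 fold change was -1.03 with HIF1A siRNA (SE 0.11, adjusted p = 5.5e-05) and -1.40 in the double knockdown (SE 0.11, adjusted p = 9.2e-07), and the former call was lost without the replicate block (adjusted p = 0.0541). LDHB, the subunit that favours pyruvate formation, was at 876 ± 131, 940 ± 178, 1038 ± 280 and 1038 ± 97.6 CPM in the order control, HIF1A, HIF2A and double knockdown, and was not called against control. In the double knockdown it was called in 2 of 22 alternatives, with the 6 compared libraries and without HIF2A siRNA replicate 2 (lowest adjusted p = 0.0277). GPT2, which interconverts pyruvate and alanine in mitochondria, went from 82.7 ± 22.2 to 48.5 ± 16.1 CPM with HIF1A siRNA (log2 fold change -0.78, SE 0.12, adjusted p = 0.0015) and to 46.6 ± 15.3 in the double knockdown (-0.84, SE 0.12, adjusted p = 0.00027). Both GPT2 calls were lost without the replicate block (adjusted p = 1 and 0.271), and the first also without replicate 3 (adjusted p = 0.0619).

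PKM, the pyruvate kinase that makes pyruvate, went from 4104 ± 464 to 2875 ± 336 CPM in the double knockdown (log2 fold change -0.51, SE 0.11, adjusted p = 0.0064). That call was lost without the replicate block (adjusted p = 0.112), replicate 1 (0.0758), replicate 3 (0.167) or control siRNA replicate 3 (0.0527). SLC16A7 (MCT2), a transporter with high affinity for pyruvate, had 93 to 426 counts per library and went from 8.71 ± 4.34 to 14.2 ± 5.78 CPM in the double knockdown (0.73, SE 0.20, adjusted p = 0.0316). It lost its call without the replicate block (adjusted p = 0.695) and in 8 of the 15 refits that left out 1 or more libraries (adjusted p = 0.0775 to 0.270 in those 8), among them control siRNA replicates 2 and 3 and each double knockdown library. The mitochondrial pyruvate carrier subunits MPC1 and MPC2 were at 6.85 ± 1.25 and 182 ± 49.3 CPM with control siRNA, and BSG, the chaperone that brings MCT1 and MCT4 to the membrane, was at 501 ± 127 CPM. None of these 3 was called against control in any alternative.

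**Figure D5:**
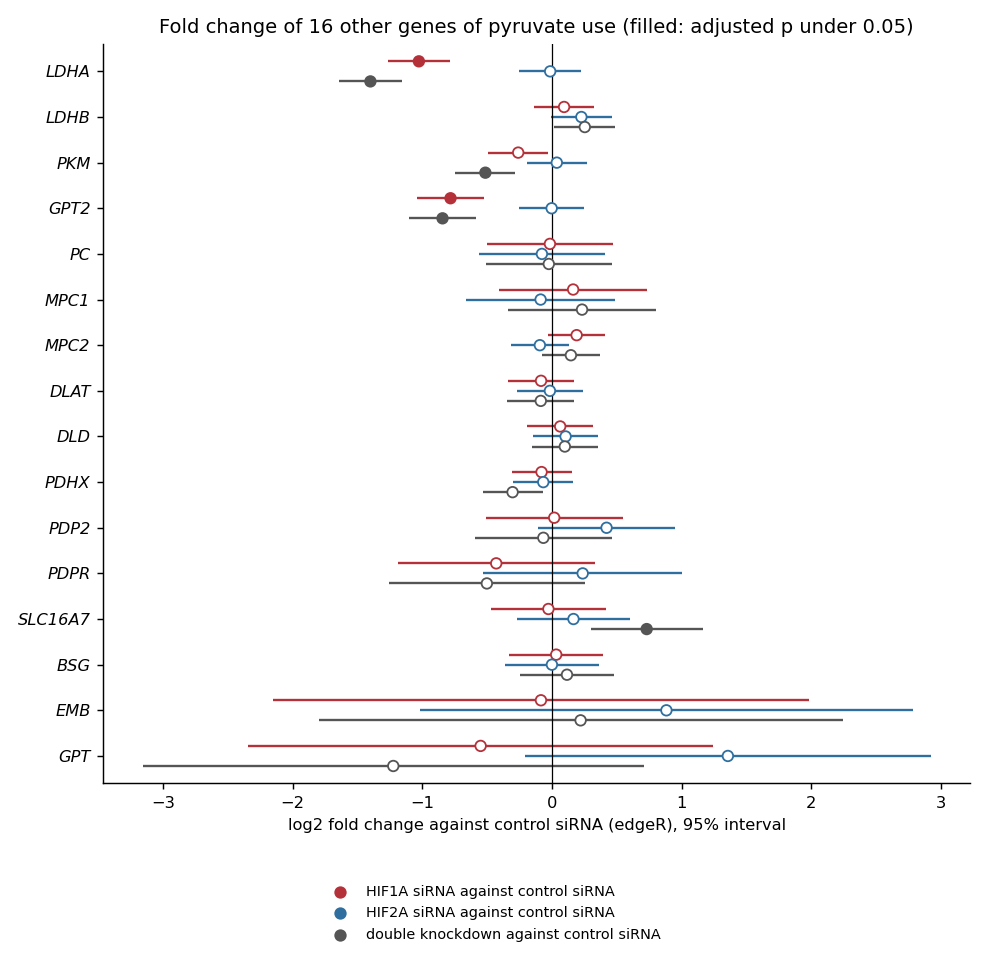
Log2 fold change against control siRNA (x axis) of 16 other genes of pyruvate use (y axis) from edgeR, with 95% intervals as bars and filled points for an adjusted p under 0.05. LDHA at -1.03 and GPT2 at -0.78 are called for HIF1A siRNA, and no HIF2A siRNA point is filled.

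Across the 12 libraries, after centring on each replicate number, the genes most like PDK1 among all tested were ANKZF1 (Pearson r = 0.994), NRN1 (0.987), BNIP3 (0.986), PPFIA4 (0.985) and FGF11 (0.985). For SLC16A3 they were VKORC1 (0.993), MUC1 (0.987), ALDOA (0.985), MIR210HG (0.985) and P4HB (0.984). Within the 9, PDK1 had r = 0.939 with SLC16A3, 0.922 with PDK3 and 0.876 with SLC16A1, and -0.671 with PDHA1. These values describe 12 points that share 4 groups and their libraries, and rank genes by the shape of their pattern only.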

How the data were processed

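RNA was measured in 12 RCC4 libraries, grouped and numbered by the sample labels. Per the study's methods and the submitters' processing notes, the authors trimmed adaptors with Trim Galore (version 0.3.3), aligned fragments to hg19 with HISAT2 (2.05), removed those not uniquely mapped with Picard (2.0.1), counted per gene with HTSeq (0.5.4p3, intersection-strict) and deposited raw counts, without normalization. Whether the counting used strand is not given in the sources used here, so that genes overlapping on opposite strands are uncertain.

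Counts were tested with edgeR (version 4.0.16, R 4.3.3): TMM scaling, the quasi-likelihood test, the edgeR filter (a scaled count of 10 or more in at least 3 libraries, and 15 or more in total), siRNA group plus replicate number as a block, all 12 libraries in 1 fit, and p-values adjusted by Benjamini-Hochberg across 13000 tested genes, with calls at an adjusted p under 0.05. SE is the size of the log2 fold change over the square root of the F statistic. CPM divides counts by the library total scaled by its TMM factor. The pairing comes from the study's methods, which pair conditions by biological replicate. Deviations of same-numbered libraries from their group means had correlations of 0.0991 to 0.813 over 18 pairs (median 0.518). Between control siRNA and HIF2A siRNA they were 0.0991, 0.231 and 0.724 for replicates 1, 2 and 3, so this pairing was weak in replicates 1 and 2. The 36 pairs with different numbers had -0.724 to 0.527 (median -0.364), so the ranges overlapped. Deviations within a group of 3 sum to 0, so positive values for same numbers force negative ones elsewhere. These medians are therefore no independent test of the pairing. The study did not use the double knockdown, and a fit of the other 9 libraries is an alternative here.

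The genes and lists were chosen with earlier results of these data known. Named were the 9 genes, HIF1A and EPAS1, list genes called against control siRNA, LDHA, LDHB, MPC1, MPC2 and BSG, and for PDK1 and SLC16A3 the 5 tested genes with the highest Pearson correlation of replicate-centred log2(CPM + 0.5). Marker genes were fixed for renal epithelial, leukocyte, endothelial, and fibroblast or pericyte cells. Scripts were tested on simulated data. Alternatives numbered 23: DESeq2 size factors, no filter, a stricter filter (10 counts or more in each library), no replicate block, the DESeq2 test (version 1.42.0), the 9 libraries without the double knockdown, the 6 compared libraries, an adjusted p under 0.1, and each replicate number or library left out. Sequences are from RefSeq, on another build than the counts, and were matched by symbol. The single-cell data were not analysed here.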

Additional observations from a re-analysis of the deposited data

How the results depend on the processing

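The calls of PDK1 and SLC16A3 against control siRNA and between the HIF siRNAs held in every alternative run. Over 48 single-gene results and 1075 alternative values, 995 kept direction and side of the threshold. Of the others, 31 lost a call, 10 gained one and 39 turned direction. The values at an adjusted p under 0.1 come from the main fit, so they could not turn direction or lose a call. Of 225 alternative counts of calls, 213 stayed within 1.5 times. A move from 3 to 2 counts as within, as for the 9 genes with HIF1A siRNA wherever PDK3 lost its call. Of the 9 genes, the double knockdown against control siRNA called 5 with the DESeq2 test, with the 6 compared libraries and at an adjusted p under 0.1, and 3 to 5 with libraries left out, PDK2 and PDHA1 being the additions. Without the replicate block, the other genes of pyruvate use had 0 calls for HIF1A siRNA and 1 for the double knockdown, and of the 9 genes 2 were called for HIF1A siRNA and 3 for the double knockdown. Calls over all genes fell from 183 to 47 and from 1348 to 194 without the block. With the 6 compared libraries the other genes had 7 calls in the double knockdown. Leaving libraries out gave 1 to 2 such calls for HIF1A siRNA and 2 to 7 for the double knockdown. The causes were not tested.

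All 39 changes of direction came from leaving out libraries and concerned differences that were not called. Over those refits, log2 fold changes with HIF1A siRNA ranged from -0.0074 to 0.13 for PDHA1 and from -0.079 to 0.082 for PDP1. With HIF2A siRNA they ranged from -0.60 to 0.11 for PDK2, -0.15 to 0.10 for PDK3, -0.025 to 0.050 for PDHA1, -0.034 to 0.17 for PDP1, -0.015 to 0.10 for SLC16A1 and -0.14 to 0.26 for SLC16A3. For the double knockdown they ranged from -0.21 to 0.024 for PDP1 against control siRNA, and against HIF1A siRNA from -0.047 to 0.32 for PDK1, -0.44 to 0.17 for PDK3 and -0.20 to 0.014 for SLC16A3. The interaction ranged from -0.55 to 0.15 for PDK1, -0.45 to 0.25 for PDK3 and -0.46 to 0.041 for SLC16A3. PDK4 and PDK2 had few counts, at 1 to 23 and 8 to 159 per library, and replicate number held 65.6% of the variance of PDK2. There were 3 replicates of 1 cell line.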
